A study of Mus musculus with 12 samples.

Results

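The 10 genes described here, Cdkn1a, Mdm2, Ccng1, Trp53inp1, Bbc3, Bax, Pmaip1, Sesn1, Zmat3 and Phlda3, are targets of the transcription factor p53, chosen by name and matched by Ensembl identifier among the 48795 genes of the count tables. All 10 were among the 11228 genes that were expressed well enough to be tested. RNA was sequenced from bone marrow-derived macrophages (BMDMs), which are macrophages grown in culture from mouse marrow with M-CSF, in 12 libraries of 6 groups with 2 libraries each. WT cells (strain labelled C57BL/6) and Acod1-/- cells (strain labelled C57BL/6NJ-Acod1em1(IMPC)J/J), which lack the enzyme that makes itaconate, received vehicle, particulate matter (PM, air pollution particles) at 20 μg/cm2 for 24 hours, or PM after 2 hours with 4-octyl itaconate (OI, an itaconate ester that enters cells) at 0.25 mM. The mice were male and 7 to 11 weeks old, and the methods give the WT strain as C57BL/6NJ. The deletion is carried by every cell of the animal, and no group received OI without PM. Neither the labels nor the methods say that the libraries of a group came from separate animals or cultures. Unless stated otherwise, the p-values rest on a spread between libraries that was pooled over all 6 groups and may be technical.

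p53, the product of Trp53, is a transcription factor that becomes stable when DNA is damaged or the cell is otherwise stressed, and then raises genes that halt the cell cycle, repair DNA, adjust metabolism or start apoptosis. Its target Mdm2 marks p53 for destruction, which closes a negative feedback loop. Proliferation genes fall in p53-induced arrest, largely through Cdkn1a (p21), but they also fall in arrest that does not involve p53, so the target genes and the proliferation genes were read side by side.

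The libraries held 33616577 to 36817898 counts. The 8 macrophage markers were all detected. Their summed levels, carried by Lyz2, were 14278 to 14599 normalized CPM (counts scaled to a common library size by TMM) with vehicle, 23189 to 27338 with PM and 14428 to 16637 with OI+PM. Fcgr1 was at 105.3 to 121.8 with PM and 26.6 to 28.3 with OI+PM, and Mertk at 64.9 to 87.4 against 25.9 to 41.5, while Itgam was at 521 to 574 against 508 to 526. The summed lymphocyte, dendritic cell and erythroid markers each reached at most 1.35, and the stromal and endothelial markers at most 4.17. Neutrophil markers summed to 5.35 to 18.5 without OI and 29.3 to 61.0 with it, carried by S100a8, while Ly6g was at or near 0 and 5 of the 8 stayed under 1 CPM in every library. S100a9 and Ltf went the other way. With PM against OI+PM, S100a9 was at 1.26 to 2.16 against 0.42 to 0.47 in WT and 3.23 to 3.31 against 1.02 to 1.05 in Acod1-/- cells. Ltf was at 0.71 to 0.72 against 0.03 in WT and 1.12 to 1.78 against 0.28 to 0.54 in Acod1-/- cells. The part of these macrophage and neutrophil marker shifts in the results was not tested. Acod1, which is induced by PM, was at 170.3 and 181.3 normalized CPM in WT and 94.1 and 107.6 in Acod1-/- cells under PM, so transcripts of the locus were still counted in the deleted line. Libraries of the WT groups stood apart by gene length: replicates differed along exonic length with a Spearman coefficient across genes of 0.60 under PM and 0.61 under OI+PM, against 0.28 with vehicle and -0.36 to 0.29 in Acod1-/- groups. Replicate 2 of WT OI+PM was relatively rich in short genes, which include Bax and Phlda3. In bulk RNA, fewer cells of a type and less RNA per cell cannot be told apart.

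The promoters are shown because p53 acts through a known DNA element made of adjacent half-sites of 10 bases each, so a reader can see which members carry the element close to the start of transcription. Of the 10 genes, 7 were found in the RefSeq promoter table (GRCm38.p6), with 11 promoters; promoters of Trp53inp1, Zmat3 and Pmaip1 were not analysed here. The p53 half-site consensus, searched in the 250 bases before to 50 bases after each start (the half-site is a palindrome, so one strand covers both), was present in 5 of the 11 promoters, against 8.36% of all 32851 promoters. A full site, defined as 2 half-sites with a spacer of at most 1 base and at most 2 mismatches in all, was present in 3, those of Cdkn1a, Ccng1 and Bax, against 1.78% of all promoters. Promoters of Bbc3 and Phlda3, the first promoter of Sesn1 and the second of Cdkn1a held neither in this window. Matches are descriptions of letters and not evidence of binding.

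The 250 bases before the start are given 5′ to 3′ on the strand of the gene, with half-sites and full sites in capitals (the Cdkn1a promoter holds a further half-site, and the full sites of Bax overlap), for the 3 genes with a full site and for Mdm2 and Sesn1, which held a half-site. Their positions are chr17:29090729-29090978 (plus strand) for Cdkn1a, chr11:40755287-40755536 (minus) for Ccng1, chr7:45466899-45467148 (minus) for Bax, chr10:117710759-117711008 (minus) for Mdm2 and chr10:41887189-41887438 (plus) for the second promoter of Sesn1.
Cdkn1a: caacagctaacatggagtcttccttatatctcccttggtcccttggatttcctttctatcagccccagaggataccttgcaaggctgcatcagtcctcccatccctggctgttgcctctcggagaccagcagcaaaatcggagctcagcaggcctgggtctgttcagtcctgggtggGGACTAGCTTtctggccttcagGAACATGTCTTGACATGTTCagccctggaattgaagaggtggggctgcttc
Ccng1: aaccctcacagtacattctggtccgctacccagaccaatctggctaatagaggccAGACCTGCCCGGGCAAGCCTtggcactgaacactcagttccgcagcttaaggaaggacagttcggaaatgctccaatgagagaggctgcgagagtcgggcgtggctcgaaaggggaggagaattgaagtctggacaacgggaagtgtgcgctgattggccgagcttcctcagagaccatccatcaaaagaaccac
Bax: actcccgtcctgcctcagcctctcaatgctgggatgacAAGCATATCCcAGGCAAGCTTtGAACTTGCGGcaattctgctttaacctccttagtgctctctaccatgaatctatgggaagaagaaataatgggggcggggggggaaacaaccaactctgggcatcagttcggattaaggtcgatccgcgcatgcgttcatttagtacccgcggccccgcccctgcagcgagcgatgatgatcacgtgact
Mdm2: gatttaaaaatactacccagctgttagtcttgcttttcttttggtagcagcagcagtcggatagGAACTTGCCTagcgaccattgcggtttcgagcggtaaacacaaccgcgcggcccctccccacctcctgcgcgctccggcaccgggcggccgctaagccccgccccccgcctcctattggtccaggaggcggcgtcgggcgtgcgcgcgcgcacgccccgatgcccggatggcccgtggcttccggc
Sesn1: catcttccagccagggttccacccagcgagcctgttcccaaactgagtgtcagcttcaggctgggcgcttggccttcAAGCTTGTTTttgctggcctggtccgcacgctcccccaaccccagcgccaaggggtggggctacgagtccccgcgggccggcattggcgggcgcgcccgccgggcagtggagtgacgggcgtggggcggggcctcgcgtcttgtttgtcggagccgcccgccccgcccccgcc

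The members were expressed over a wide range. Per kilobase of exon, the mean level in vehicle-treated WT cells ran from 92.2 normalized CPM per kb for Ccng1 and 90.5 for Cdkn1a, whose libraries overlapped, through 55.7 for Mdm2 and 55.5 for Bax, which also overlapped, and 34.2 for Sesn1, to 16.7 for Trp53inp1 and 15.04 for Phlda3, a pair that overlapped. Bbc3 at 7.52, Pmaip1 at 6.27 and Zmat3 at 5.62 were lowest. Under OI+PM in WT the mean of Cdkn1a was 123.2, with libraries that overlapped those of Bax, and that of Sesn1 was 7.89. The smallest raw count of a member in any library was 315, for Pmaip1.

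**Figure D1:**
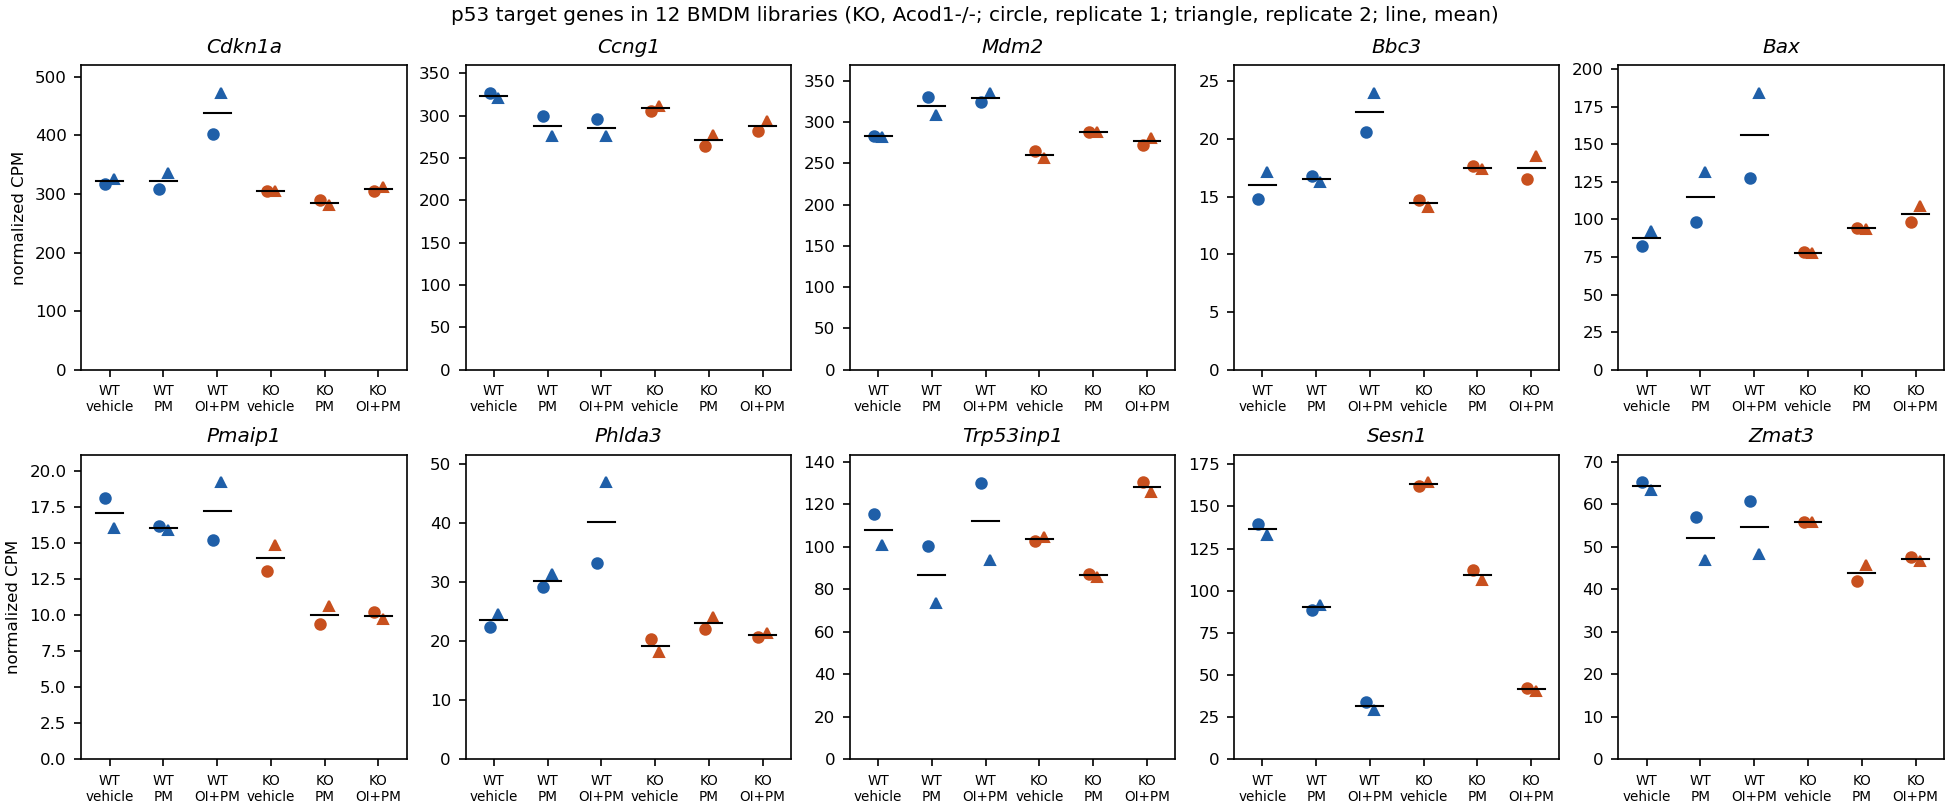
Normalized CPM (vertical axis, from 0) of each of the 10 p53 target genes in the 12 libraries, by group on the horizontal axis. Circles are replicate 1, triangles replicate 2 and lines means of 2 libraries; WT is blue and Acod1-/- (KO) orange. Sesn1 steps down from vehicle through PM to OI+PM in both genotypes, and Cdkn1a is highest in the WT OI+PM libraries, at 402 and 473.

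The first comparison asked what OI added to PM (OI+PM versus PM). In WT BMDMs, 3 of the 10 members rose (Cdkn1a, Bbc3 and Phlda3), when 21.3% of all tested genes rose, and 1 fell (Sesn1), when 22.6% of all genes fell, at an adjusted p of 0.05 or less. In Acod1-/- BMDMs, 1 rose (Trp53inp1), against 13.9% of all genes, and 1 fell (Sesn1), against 20.6%. The median log2 fold change of the members was 0.23 in WT and 0.04 in Acod1-/- cells, beside 0.02 and -0.00 over all genes. Sesn1 was the one member whose fold change exceeded 2-fold, in both genotypes, when 8.49% of genes in WT and 7.98% in Acod1-/- cells fell by as much. Of all genes that passed, 48.5% were higher in WT and 40.3% in Acod1-/- cells; with total count scaling, which moved the median of all genes in WT to -0.11, these shares were 29.9% and 29.7%, and 2 members rose in WT (Cdkn1a and Bbc3), against 12.6% of all genes, and none in Acod1-/- cells, against 10.1%. Both comparisons are read against PM groups that also enter the PM comparisons below.

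Among the cell cycle members, Cdkn1a, the inhibitor of cyclin-dependent kinases, stood at 309 and 337 normalized CPM in the PM libraries of WT and at 402 and 473 in the OI+PM libraries. The OI+PM libraries were both higher than the PM libraries, and the log2 fold change was 0.44 ± 0.08 (SE, edgeR adjusted p = 0.0012). In Acod1-/- cells, Cdkn1a was at 281 and 289.7 with PM and at 306 and 313 with OI+PM. These libraries did not overlap either, but the log2 fold change of 0.12 ± 0.08 did not pass (edgeR adjusted p = 0.29). Part of the Cdkn1a exons, 273 bases, overlaps AC167363.2 on the opposite strand, and the handling of strand is not stated. Ccng1 encodes cyclin G1, and its promoter holds a match to the full p53 site, as does the first but not the second promoter of Cdkn1a. Which Cdkn1a start was used was not measured. The level of Ccng1 was 299.7 and 276 with PM and 296 and 275 with OI+PM in WT. In Acod1-/- cells Ccng1 was at 264 and 278 against 282 and 294. Its log2 fold changes of -0.01 ± 0.06 and 0.09 ± 0.06 did not pass (adjusted p = 0.91 and 0.33). The sign of the WT value changed when single libraries were left out.

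Mdm2, the ubiquitin ligase that limits p53, was at 331 and 308 with PM and 324 and 335 with OI+PM in WT BMDMs. In Acod1-/- BMDMs it was at 288 in both PM libraries and at 272 and 281 with OI+PM. The groups overlapped in WT, and the log2 fold changes of 0.05 ± 0.06 and -0.06 ± 0.06 did not pass (edgeR adjusted p = 0.53 and 0.47). With total count scaling the WT value was -0.09, also without a call.

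Of the apoptosis members, Bbc3 (PUMA, which frees the effectors of cell death) was at 16.8 and 16.3 normalized CPM with PM and at 20.6 and 24.0 with OI+PM in WT. It rose by 0.43 ± 0.10 on the log2 scale (edgeR adjusted p = 0.0075). In Acod1-/- cells, Bbc3 was at 17.6 and 17.4 with PM and at 16.5 and 18.5 with OI+PM, which overlapped (log2 fold change -0.00 ± 0.10, adjusted p = 0.99). Bax, the effector that opens the mitochondrial outer membrane, was at 98.1 and 131.6 with PM and at 127.9 and 184 with OI+PM in WT, so that one PM library lay above one OI+PM library. Within each replicate number the OI+PM library was the higher. The log2 fold change of Bax, 0.44 ± 0.17, missed the threshold (edgeR adjusted p = 0.058). It passed in 9 of 16 alternatives, DESeq2 (adjusted p = 0.025) and the replicate block among them. Without WT PM replicate 2 or WT OI+PM replicate 1 it was 0.67 and 0.68 (adjusted p = 0.018 and 0.0014), and without WT PM replicate 1 or WT OI+PM replicate 2 it was 0.24 and 0.16 (adjusted p = 0.34 and 0.41). In Acod1-/- cells Bax was at 94.3 and 93.7 against 98.1 and 108.7 (0.14 ± 0.17, adjusted p = 0.58). Exons of Bax share 192 bases with Gm45808 on the same strand. Pmaip1 (NOXA, an antagonist of Mcl1) was at 16.2 and 15.9 with PM and 15.2 and 19.3 with OI+PM in WT, and its log2 fold changes were 0.10 ± 0.12 in WT and -0.00 ± 0.13 in Acod1-/- cells (adjusted p = 0.55 and 0.99). With total count scaling the WT value of Pmaip1 was -0.04.

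Phlda3, which opposes AKT signaling at the membrane, was at 29.1 and 31.3 with PM and at 33.2 and 46.9 with OI+PM in WT. It rose by 0.41 ± 0.14 on the log2 scale (edgeR adjusted p = 0.040), and the size of this rise rested on replicate 2 of WT OI+PM, since without that library the log2 fold change was 0.14 (adjusted p = 0.29). The call was lost in 8 of 16 alternatives (the 2-fold threshold included), also without WT PM replicate 1 or 2 (adjusted p = 0.17 and 0.067) and with total count scaling (0.11). In Acod1-/- cells, Phlda3 was at 22.1 and 24.0 with PM and 20.6 and 21.4 with OI+PM, and the log2 fold change of -0.13 ± 0.14 did not pass (adjusted p = 0.54).

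Trp53inp1, a stress protein that acts with p53 and in autophagy, was at 87.2 and 85.8 with PM and at 130.5 and 126.0 with OI+PM in Acod1-/- cells, where it rose by 0.57 ± 0.16 on the log2 scale (edgeR adjusted p = 0.021). The call was lost when any of these 4 libraries was left out, with an adjusted p of 0.074 to 0.10, while the log2 fold change stayed between 0.54 and 0.59. In WT the PM libraries were at 100.3 and 73.6 and the OI+PM libraries at 130.0 and 93.9. These overlapped, since replicate 2 of each group was the lower, while within each replicate number the OI+PM library was the higher. The log2 fold change of 0.37 ± 0.16 did not pass (edgeR adjusted p = 0.094), although it passed in 7 of 16 alternatives, the replicate block among them. Without WT PM replicate 1 or WT OI+PM replicate 2 it was 0.60 and 0.58 and passed (adjusted p = 0.025 and 0.0065), and without WT PM replicate 2 or WT OI+PM replicate 1 it was 0.16 and 0.11 and did not (adjusted p = 0.44 and 0.52).

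Sesn1 (sestrin 1, which restrains the growth-promoting mTOR kinase) was the member with the largest change. In WT it was at 88.6 and 91.7 normalized CPM with PM and at 33.9 and 29.0 with OI+PM, and in Acod1-/- cells at 112.4 and 106.5 with PM and 42.1 and 40.6 with OI+PM. All OI+PM libraries were far below all PM libraries in both genotypes. Sesn1 fell by 1.52 ± 0.08 on the log2 scale in WT (edgeR adjusted p = 2.3e-07), to 0.349 times the PM level, and by 1.41 ± 0.08 in Acod1-/- cells (adjusted p = 3.9e-07), to 0.377 times. Zmat3, an RNA-binding zinc finger protein, was at 57.1 and 46.9 with PM and 60.9 and 48.3 with OI+PM in WT, and its log2 fold changes of 0.07 ± 0.12 and 0.10 ± 0.12 did not pass (adjusted p = 0.65 and 0.55); with total count scaling the WT value was -0.05.

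**Figure D2:**
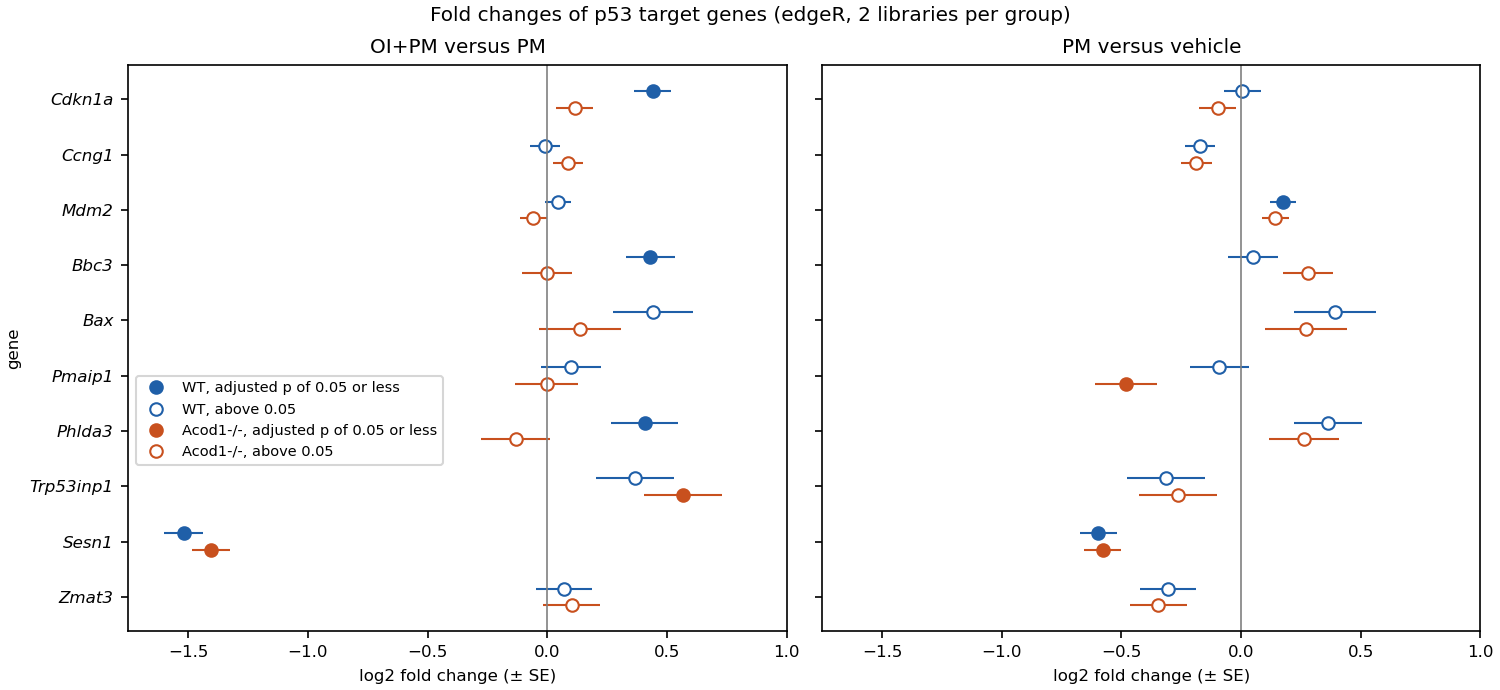
Log2 fold change (horizontal axis) of each p53 target gene (vertical axis) for OI+PM versus PM on the left and PM versus vehicle on the right. Points are edgeR estimates, bars are SE, blue is WT and orange Acod1-/-, and filled points had an adjusted p of 0.05 or less. Sesn1 lies at -1.52 and -1.41 with OI, and Cdkn1a, Bbc3 and Phlda3 are filled in WT alone, although no interaction with genotype passed.

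When each library was corrected for its trend along gene length, 6 members rose with OI in WT (Cdkn1a, Bbc3, Phlda3, Bax, Trp53inp1 and Zmat3, with log2 fold changes of 0.17 to 0.40), while 25.2% of all genes rose. With only the libraries of the WT PM and OI+PM groups in the fit, no member rose, against 5.33% of all genes. Cdkn1a then had an edgeR adjusted p of 0.074, Bbc3 0.11 and Phlda3 0.23. Genes passing in either direction went from 43.9% to 17.3% of all genes in this fit. In the same kind of fit for Acod1-/- cells they went from 34.6% to 51.6%. The SD of the log2 replicate difference across genes was 0.38 in WT OI+PM and 0.26 in WT PM, against 0.13 to 0.17 in the other groups. The part of this unequal spread in the calls was not tested.

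**Figure D3:**
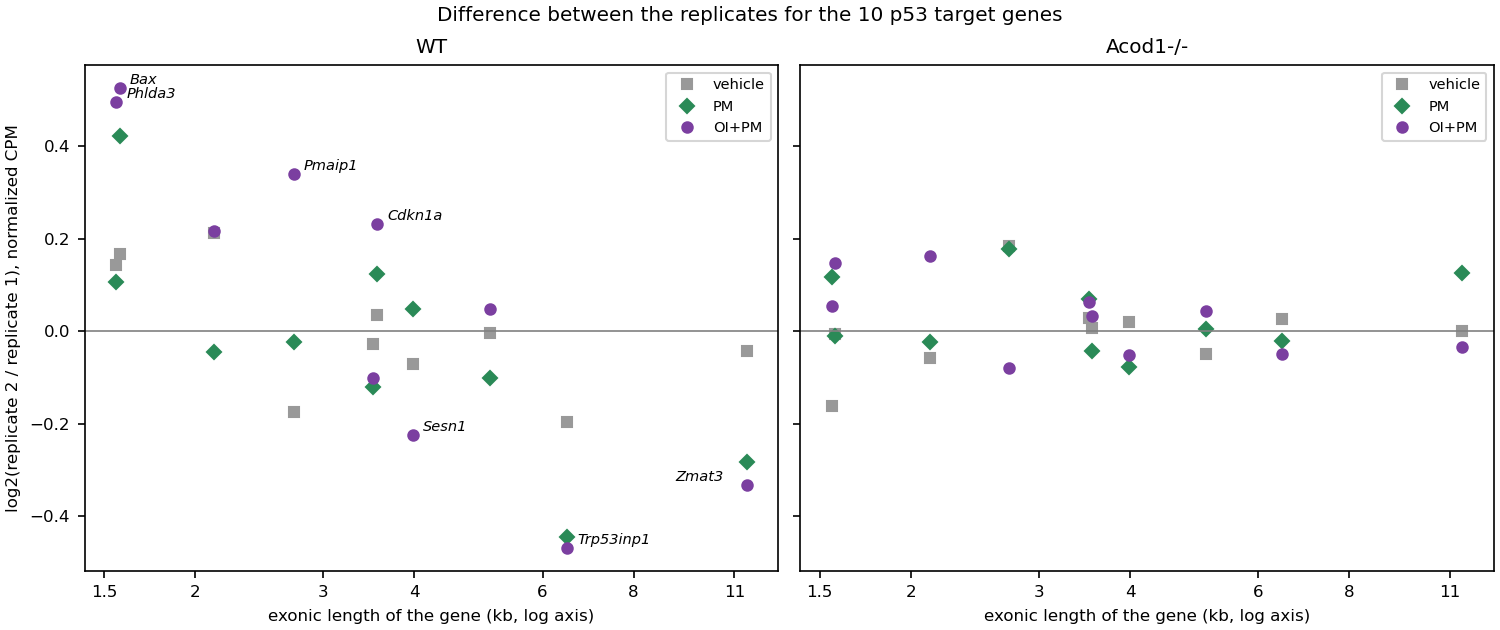
Log2 ratio of replicate 2 to replicate 1 (vertical axis) against exonic length in kb (horizontal log axis) for the 10 p53 target genes, in WT on the left and Acod1-/- on the right, by treatment. In WT OI+PM, the short genes Bax and Phlda3 are higher in replicate 2, by 0.53 and 0.50, and the longer Trp53inp1 and Zmat3 are lower, by 0.47 and 0.33; the Acod1-/- points lie closer to 0.

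Whether OI acted differently on the members in the 2 genotypes was tested as an interaction. The difference of the log2 fold changes (Acod1-/- minus WT) was -0.32 ± 0.11 for Cdkn1a, -0.43 ± 0.15 for Bbc3 and -0.54 ± 0.20 for Phlda3, and these 3 were the members with an unadjusted p under 0.05 (0.014, 0.015 and 0.024). No member passed after adjustment in edgeR (lowest adjusted p = 0.70) or in DESeq2 (lowest 0.52). Over all genes 0% passed in edgeR, with 717 of 11228 at an unadjusted p under 0.05, and DESeq2 called 13 higher and 21 lower. Without WT OI+PM replicate 1, Cdkn1a and Phlda3 passed (edgeR adjusted p = 0.033 and 0.024), as did 4.68% of all genes. For Sesn1 the difference was 0.11 ± 0.11 (edgeR adjusted p = 0.84).

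PM alone was compared with vehicle. In WT, 1 member rose (Mdm2), against 12.6% of all genes, and 1 fell (Sesn1), against 12.2%. In Acod1-/- BMDMs no member rose in edgeR, against 12% of all genes, and 2 fell (Sesn1 and Pmaip1), against 11.9%. At an unadjusted p under 0.05 in edgeR, 2 members were higher and 4 lower, when 4164 of 11228 genes passed in either direction. DESeq2 called no member higher and 3 lower, against 13% and 12.9% of all genes. The median of the members was -0.04 in WT and -0.14 in Acod1-/- cells, beside 0.01 and -0.00 over all genes. Of all genes that passed, 50.8% were higher in WT and 50.1% in Acod1-/- cells, and 34.9% and 37.1% with total count scaling, which left no rise among the members.

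Sesn1 was at 139.7 and 133.0 normalized CPM with vehicle in WT and at 162 and 164 in Acod1-/- cells, above every PM library of the same genotype. It fell with PM by 0.60 ± 0.08 in WT (edgeR adjusted p = 0.00041) and by 0.58 ± 0.08 in Acod1-/- cells (adjusted p = 0.00045). Mdm2 was at 283 in both vehicle libraries of WT, below the PM libraries, and rose by 0.18 ± 0.06 (adjusted p = 0.045). In Acod1-/- cells Mdm2 was at 265 and 256 with vehicle, and the change of 0.14 ± 0.06 did not pass (adjusted p = 0.092). The WT call of Mdm2 was lost in 10 of 16 alternatives (the 2-fold threshold included), among them RLE size factors (adjusted p = 0.066), total count scaling (0.29), both other filters (0.080 and 0.051) and the compared groups alone (0.12), and when either vehicle library or WT PM replicate 1 was left out (adjusted p = 0.15 to 0.19).

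Pmaip1 was at 13.1 and 14.9 with vehicle and 9.38 and 10.6 with PM in Acod1-/- cells and fell by 0.48 ± 0.13 (edgeR adjusted p = 0.023), a call that was lost without Acod1-/- vehicle replicate 2 (adjusted p = 0.16) or PM replicate 1 (0.17). In WT its vehicle libraries were at 18.2 and 16.1 and overlapped those with PM (log2 fold change -0.09 ± 0.12, adjusted p = 0.59). The difference between genotypes was -0.39 ± 0.18 and did not pass (adjusted p = 0.9998). Cdkn1a was at 318 and 325 with vehicle in WT and 304 and 306 in Acod1-/- cells, and its log2 fold changes with PM of 0.01 ± 0.08 and -0.10 ± 0.08 did not pass (adjusted p = 0.96 and 0.38). The remaining 6 members (Ccng1, Trp53inp1, Bbc3, Bax, Zmat3 and Phlda3) had PM log2 fold changes of -0.31 to 0.39 in WT and -0.35 to 0.28 in Acod1-/- cells, without a call. The PM log2 fold changes of all genes followed exonic length, with Spearman coefficients of -0.46 in WT and -0.40 in Acod1-/- cells. Across alternatives the WT value ran from 0.15 to 0.59 for the short Bax and from -0.46 to -0.07 for the long Zmat3. The part of length in these values was not tested. Over all genes 0% passed the interaction of PM and genotype in edgeR, and no member did in edgeR or DESeq2; none had an unadjusted p under 0.05, compared with 273 of all genes. In its own fit, DESeq2 called 2 genes higher and 1 lower.

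Between genotypes (Acod1-/- versus WT), no member passed with vehicle in edgeR, against 1.83% of all genes. At an unadjusted p under 0.05 in edgeR, 2 members passed, when 1141 of 11228 genes did. None passed in DESeq2, against 2.73% of all genes. With PM, 1 passed (Pmaip1), against 2.4%, and with OI+PM 5 passed (Cdkn1a, Mdm2, Phlda3, Pmaip1 and Sesn1), against 6.96%. Of all genes that passed under OI+PM, 36.1% were higher in Acod1-/- cells, and 53.4% with total count scaling. The log2 differences of all genes under OI+PM followed exonic length, with a Spearman coefficient of 0.41. These comparisons share the libraries used above. Under OI+PM, Pmaip1 was at 10.3 and 9.70 normalized CPM in Acod1-/- cells against 15.2 and 19.3 in WT, and its log2 difference was -0.79 ± 0.13 (edgeR adjusted p = 0.0094); with PM it was -0.68 ± 0.13 (adjusted p = 0.024), a call that was lost without any one of the 4 libraries (adjusted p = 0.086 to 0.20). Phlda3 differed by -0.93 ± 0.14 (adjusted p = 0.0074), Cdkn1a by -0.50 ± 0.08 (adjusted p = 0.0073) and Mdm2 by -0.25 ± 0.06 (adjusted p = 0.027), all lower in Acod1-/- cells. Sesn1 was higher there by 0.39 ± 0.08 (adjusted p = 0.021). None of the 5 passed in the libraries of these 2 groups alone or without either Acod1-/- OI+PM library, and without WT OI+PM replicate 2 those of Mdm2 and Sesn1 were lost.

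Trp53 itself was measured as mRNA, whereas p53 activity is set largely by protein stability, which these data do not hold. Trp53 was at 56.99 and 61.5 normalized CPM with PM and 49.1 and 50.5 with OI+PM in WT, and at 57.04 and 59.5 against 50.1 and 46.5 in Acod1-/- cells. It fell with OI by 0.25 ± 0.07 on the log2 scale in WT (edgeR adjusted p = 0.014) and by 0.27 ± 0.07 in Acod1-/- cells (adjusted p = 0.011). The call was lost in WT with the compared groups alone (adjusted p = 0.21) or without WT PM replicate 2 (0.075), and in Acod1-/- cells without PM replicate 2 (0.077) or OI+PM replicate 2 (0.11). With PM it had risen from 47.4 and 45.8 in WT and 44.998 and 45.2 in Acod1-/- cells, by 0.35 ± 0.07 and 0.37 ± 0.07 (adjusted p = 0.0053 and 0.0032). Of the 12 genes of the list of p53 and its regulators, 2 fell with OI in each genotype, Trp53 and Chek1, and 10 did not pass, when 22.6% of all genes fell in WT and 20.6% in Acod1-/- cells. Chek1, the checkpoint kinase of DNA replication stress, went from 10.999 and 9.86 with PM to 0.898 and 1.15 with OI+PM in WT (log2 fold change -3.35 ± 0.15) and by -3.49 ± 0.16 in Acod1-/- cells. Mdm4, the partner of Mdm2, had log2 fold changes of -0.36 ± 0.15 and -0.26 ± 0.15 (adjusted p = 0.077 and 0.22). It was called lower in 8 of 15 alternatives in WT and 3 of 13 in Acod1-/- cells. In WT it was called without WT PM replicate 2 or WT OI+PM replicate 1 (log2 fold change -0.53 and -0.63) and with total count scaling (-0.49), and not without WT PM replicate 1 or WT OI+PM replicate 2 (-0.18 and -0.14). With the gene length offset it was called lower in both genotypes (-0.23 and -0.24), and with the compared groups alone in Acod1-/- cells (-0.26, adjusted p = 0.0038).

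Of 33 further p53 targets, 31 were tested. With OI 10 rose and 5 fell in WT, when 21.3% of all genes rose and 22.6% fell, and 7 rose and 5 fell in Acod1-/- cells, when 13.9% rose and 20.6% fell. Their median log2 fold change was 0.06 in WT and 0.10 in Acod1-/- cells, beside 0.02 and -0.00 over all genes. In both genotypes 6 rose and 4 fell, and the share of all genes that did so in both was not computed. The largest rises in WT and Acod1-/- cells were those of Gdf15, a stress cytokine (1.79 and 1.48), Plk3, a stress-responsive kinase (1.56 and 1.36), Ephx1, an epoxide hydrolase (0.73 and 0.64), Sfn, a 14-3-3 protein that holds the cell cycle (0.59 and 0.64), and Xpc, a sensor of DNA damage (0.52 and 0.44). The 4 that fell were Jag2, a Notch ligand (-1.54 and -1.19), the death receptor gene Fas (-0.68 and -0.77), Steap3, a ferrireductase (-0.58 and -0.40), and Dglucy, an enzyme of D-glutamate breakdown (-0.32 and -0.26). Gdf15 went from 32.7 and 32.9 normalized CPM with PM to 96.5 and 129.9 with OI+PM in WT. Gdf15 is also known to be raised by other stress pathways, and Ephx1 by NRF2. Fas went from 13.2 and 15.1 to 6.62 and 11.2 in WT, with a log2 fold change of -0.34 without OI+PM replicate 1 and -1.09 without OI+PM replicate 2 (edgeR adjusted p = 0.10 and 0.00060). Single libraries left out also ended calls of Fas (in WT without PM replicate 2 and in Acod1-/- cells without PM replicate 1 or OI+PM replicate 1), of Jag2 in Acod1-/- cells (without replicate 2 of PM or OI+PM), of Dglucy in Acod1-/- cells (without any one of the 4) and in WT (without PM replicate 1) and of Sfn in Acod1-/- cells (without OI+PM replicate 2), and without WT OI+PM replicate 2 the value of Sfn was 0.38. Exons of Plk3, Ephx1 and Dglucy overlap another gene.

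Of the 28 proliferation genes, 27 fell with OI in WT and 27 in Acod1-/- cells, with medians of -3.49 in both, when 22.6% and 20.6% of all genes fell. Mki67, the proliferation marker, went from 198 and 162 normalized CPM with PM to 11.6 and 7.38 with OI+PM in WT (log2 fold change -4.24) and by -4.33 in Acod1-/- cells. Top2a, the topoisomerase of mitosis, had log2 fold changes of -4.12 and -4.42, Ccnb1 (cyclin B1) of -4.33 and -4.80, and Cdk1, its kinase, of -1.94 and -2.56. Pcna, the sliding clamp of DNA replication, was the gene that did not pass (-0.04 and 0.11, edgeR adjusted p = 0.73 and 0.35).

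**Figure D4:**
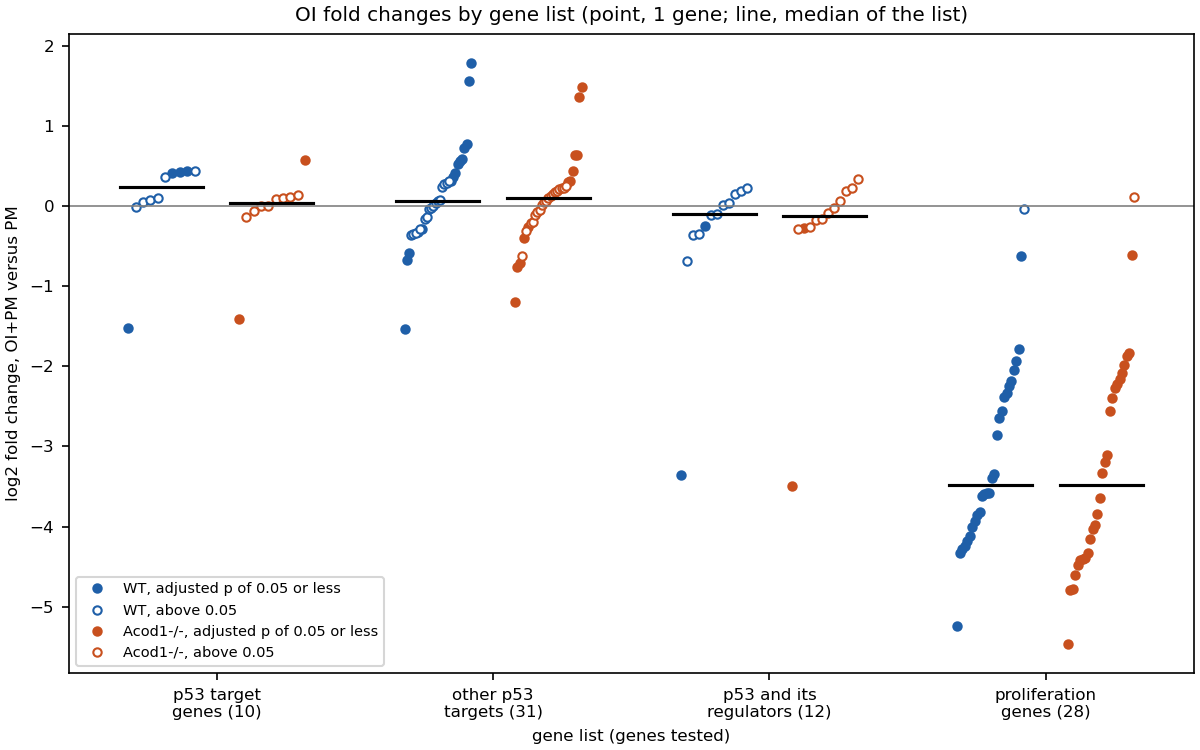
Log2 fold change of OI+PM versus PM (vertical axis) for the genes of 4 lists (horizontal axis, with the number tested), in WT (blue) and Acod1-/- (orange). Each point is a gene, filled at an adjusted p of 0.05 or less, and lines are list medians. The proliferation genes lie around a median of -3.49 in both genotypes, while the p53 target genes lie around 0.23 and 0.04 with Sesn1 far below the others.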

How the data were processed

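The authors sequenced 12 BMDM libraries as single-end reads of 50 bp, aligned them to GRCm38 with STAR 2.5.3a and counted reads per gene with featureCounts; FastQC 0.11.5, Picard 2.9.0 and DESeq2 are also named in the submitters' processing notes. The files as deposited hold raw counts for each gene with no scaling. The annotation release and the handling of strand and of multi-mapping reads are not given in the sources used here. Identifiers were matched to symbols for 48349 of 48795 genes, and exonic lengths came from a GRCm38 annotation. Columns of fold changes or p-values were not present in the files used.

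Genes with CPM above 1.5 in at least 2 of the 12 libraries were tested (11228). After TMM scaling, edgeR 4.0.16 (R 4.3.3) was used for a quasi-likelihood fit with one mean per group and no replicate block, and p-values were adjusted by Benjamini-Hochberg over all genes tested. A gene passed at an adjusted p of 0.05 or less; 2-fold changes were those of at least 1 on the log2 scale. SE is the size of the log2 fold change over the square root of F. Normalized CPM are counts over TMM-scaled library sizes.

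Alternatives were DESeq2 1.42.0, the compared groups alone, RLE factors or plain library totals (total count scaling), other filters (10 or more counts over the libraries, or CPM above 1.5 in all of them), the 2-fold threshold, a replicate block, an offset from a lowess curve (span 0.3) along exonic length, both together, and leaving out each library, when the lone library is assumed to vary like the other groups. The fits were tested on simulated counts in which a gene had the same spread in every group and no trend along length. Such a simulation could not test calls under the wider, length-linked replicate spread of the WT groups. All 10 members were named; from the other lists, Trp53, Mdm4, regulators that passed in both OI comparisons, up to 5 genes per direction with the largest mean change among those that passed in both, and Mki67, Top2a, Ccnb1, Cdk1 and Pcna. The members and gene lists were chosen with earlier results of these data known.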

Additional observations from a re-analysis of the deposited data

How the results depend on the processing

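Sesn1 fell with OI and with PM in both genotypes under every alternative that kept the adjusted p alone as the threshold, leave-outs included. Counts of members follow, many with the share of all genes called in the same fit in brackets. The cause of each shift was not tested. With OI in WT, 3 members rose as reported (21.3% of all genes) and 0 when the compared groups were fitted alone (5.33%). The number was 4 in DESeq2 (22.4%), 5 with the replicate block (22.5%), 6 with the gene length offset (25.2%) and 6 with this offset and the block (26.1%). It was 0 at the 2-fold threshold and also moved with libraries left out. With OI in Acod1-/- cells, 1 rose as reported (13.9% of all genes), 0 with total count scaling (10.1%) and 0 at 2-fold. That call was also lost when any of the 4 libraries was left out. With PM in WT, 1 rose as reported (12.6% of all genes). It was 0 with RLE factors (12.1%), total count scaling (9.69%), either filter (7.89% and 11.4%), the replicate block (13.6%) or at 2-fold. There 1 fell as reported (12.2%). Falls were 2 with total count scaling (18.1%), 2 with the offset (14.3%), 2 with offset and block (15.1%) and 0 at 2-fold. Both counts also moved with libraries left out. With PM in Acod1-/- cells, 0 rose as reported (12% of all genes) and 4 with the compared groups alone (25.5%). It was 1 with the offset (15.7%) and 1 with the offset and the block (16.3%). There 2 fell as reported (11.9%), 3 in DESeq2 (12.9%) and 5 with the compared groups alone (24.8%). Falls were 4 with total count scaling (16.4%), 4 with the offset (14%), 4 with offset and block (14.3%) and 0 at 2-fold. Falls also moved with libraries left out. Of all genes, 2.4% passed between genotypes with PM as reported, 3.87% in DESeq2, 5.25% with the offset and 5.33% with offset and block. With vehicle these shares were 1.83% as reported, 3.32% with the offset and 3.31% with offset and block. Between genotypes, 0 passed with vehicle, 6 with the compared groups alone (20.6% of all genes) and 1 with the offset, with or without the block; 1 passed with PM, 2 in DESeq2, 3 with the offset, with or without the block, 0 at 2-fold and 0 to 6 with libraries left out (0 without any single library, when 0.659% to 1.36% of all genes passed, and 6 without replicate 1 of both WT PM and WT OI+PM, when 33.8% did); 5 passed with OI+PM, 0 with the compared groups alone (0.0178% of all genes) or at 2-fold and 0 to 8 with libraries left out (0 without Acod1-/- OI+PM replicate 1 or 2, when 0.846% and 0.9% of all genes passed, and 8 without WT OI+PM replicate 1, when 48.6% did). For the interaction of OI and genotype, 0 passed as reported and 0 to 4 with libraries left out, the 4 (Bax, Bbc3, Cdkn1a and Phlda3) when replicate 1 of both WT PM and WT OI+PM was left out (10.3% of all genes), an alternative chosen after seeing the data, as was leaving out both replicates 2.

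Deviations of same-numbered libraries correlated at 0.73 between WT PM and WT OI+PM and at -0.41 to 0.25 between other groups. The replicate block spanned both genotypes, so pairing within WT alone was not tested. With OI in WT the block added rises of Bax and Trp53inp1 (edgeR adjusted p = 0.020 and 0.042). It also gave a fall of Mdm4 there (0.030) and a lost rise of Mdm2 with PM (0.052). Between genotypes under OI+PM it gave 6 calls (7.84% of all genes). With numbers of the Acod1-/- PM libraries crossed, added after seeing the data, 1 member passed between genotypes under PM (3.51%). Of 697 values of single members under alternatives, 549 kept their side of the threshold and direction, 62 lost a call, 50 gained one and 36 changed sign without a call in either fit. With OI, the falls of proliferation genes numbered 16 to 28 in WT and 16 to 27 in Acod1-/- cells, the 16 with CPM above 1.5 required in all libraries, when fewer genes were tested. The rises of further p53 targets numbered 2 to 13 in WT and 2 to 11 in Acod1-/- cells, the 2 at the 2-fold threshold. Each group held 2 libraries, which limits the precision of every value.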

Other observations

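Of 12 genes of the BCL2 family, which regulate apoptosis, 10 were tested. With OI 2 rose and 2 fell in WT, when 21.3% and 22.6% of all genes did, and 2 rose and 4 fell in Acod1-/- cells, when 13.9% and 20.6% of all genes did. Mcl1, a guardian against cell death that Pmaip1 binds, was at 886 and 864 normalized CPM with PM and at 419.7 and 428 with OI+PM in WT, and at 941 and 903 against 474 and 467 in Acod1-/- cells. The 2 groups were far apart in each genotype, with log2 fold changes of -1.05 ± 0.05 and -0.97 ± 0.05 (SE, edgeR adjusted p = 1.3e-07 and 2.2e-07). Bcl2a1b, another prosurvival gene, whose exons overlap those of Gm29094, had log2 fold changes of -0.92 and -1.07. Bcl2, which also protects cells, rose by 0.70 and 1.02, and Bmf, which opposes it, had changes of 0.42 and 0.46 (adjusted p = 0.0498 and 0.040). The call of Bmf was lost in 9 of 15 alternatives in WT and 6 of 13 in Acod1-/- cells, and its WT value was 0.15 without WT OI+PM replicate 1 and 0.65 without replicate 2.

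Genes of the ATF4 and CHOP stress response were tested for 11 of 12 members of their list. In WT 9 rose and none fell with OI, when 21.3% and 22.6% of all genes did, and in Acod1-/- cells 6 rose and 2 fell, when 13.9% and 20.6% of all genes did. The lowest log2 fold change of the list was -0.57 in WT and -1.30 in Acod1-/- cells. The genes named below are risers that passed in both genotypes. Slc7a11, the cystine transporter, was at 100.8 and 70.4 normalized CPM with PM and at 442 and 402 with OI+PM in WT, and at 77.4 and 82.0 against 418 and 381 in Acod1-/- cells. Its log2 fold changes were 2.30 ± 0.15 and 2.33 ± 0.15 (edgeR adjusted p = 8.6e-07 in both). Chac1, which degrades glutathione, changed by 1.92 and 1.13, Asns, asparagine synthetase, by 1.79 and 1.23, the pseudokinase gene Trib3 by 1.67 and 1.02, and Atf4 itself by 1.22 and 0.83. The Acod1-/- call of Chac1 was lost without PM replicate 2 or OI+PM replicate 1 (adjusted p = 0.11 and 0.084). Whether any of these changes depends on p53 was not tested.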
